A study of Mus musculus with 15 samples.

Results

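The genes described here belong to families that build, cross-link or cut the extracellular matrix, and were measured in ovaries of mice with both, 1 or neither working copy of *Foxl2*, the forkhead transcription factor needed for granulosa cell maturation. Members were the genes whose current symbol belongs to the collagen, laminin, nidogen, fibulin, fibrillin, lysyl oxidase, thrombospondin, Sparc, fibronectin, matrix metalloproteinase (Mmp), Timp or Adamts families. The array named 79 of them among 12254 named genes, each read at its brightest probe. All 79 were well above background on every array of at least 1 group, and 75 were so on all 15 arrays. *Loxhd1*, a hair cell protein that is not a lysyl oxidase, is among them by its symbol alone. Fibronectin, *Thbs1* and *Fbn2* had no named probe and were not analysed here.

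The ovaries were *Foxl2*-/- (null), *Foxl2*+/- (heterozygous) and *Foxl2*+/+ (wild-type), taken from newborn females (3 arrays per genotype) and at 7 days postnatum (7 dpn, 2 arrays per genotype). All mice shared the strain NIHS-BC of the labels, described in the methods as a mixed background, and the knockout was not limited to a cell type. The 7 dpn samples were pools of several mice. The methods count fewer 7 dpn samples than carry labels, and describe them as not amplified where the labels name a linear amplification kit; all labelled samples were used. The age tag of the 7 dpn samples gives birth, but their titles and developmental stage give 7 days, which were followed. On each array the ovary RNA (Cy3) was set against a universal reference pooled from mouse cell lines (Cy5), so every level below is a log2 ratio of ovary over reference. Such ratios can be compared between arrays for a gene but not between genes.

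The arrays measured 93.2 to 96.5% of their probes well above background in the ovary channel, and arrays of a group correlated with r of 0.894 to 0.964 over probes. The single *Foxl2* probe read between -0.36 and -0.20 on all 15 arrays and did not separate the genotypes, so it checks no label. *Sox9*, a transcription factor of testis differentiation, was higher in null than in wild-type ovaries in newborns (difference 0.76) and at 7 dpn (1.71). Germ cell markers averaged 3.46 to 4.04 over the reference on every array. No member probe was saturated.

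Extracellular matrix is laid down in layers. Basement membranes, made of type IV collagen, laminins and nidogens, enclose each ovarian follicle and separate granulosa cells from the surrounding stroma, whose fibroblasts secrete fibrillar collagens, fibulins and matricellular proteins. Metalloproteinases of the Mmp and Adamts families cut these proteins, and the Timp proteins inhibit them, and the matrix is remodelled by both as follicles grow. In the newborn mouse ovary, germ cell cysts break up into primordial follicles, and by the end of the first week growing follicles and their stroma are present.

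Stretches upstream of the start site are shown for *Col8a1*, *Fbln2*, *Col17a1* and *Thbs4*, which differed most between null and wild-type ovaries at 7 dpn. *Timp3*, which differed less than several genes not shown, was chosen because it holds a forkhead motif. They are the 250 bases before each start site, from RefSeq (GRCm38.p6). Capitals mark the forkhead core TAAACA or its reverse TGTTTA, the AP-1 motif TGANTCA, and the box TATAAA or its reverse TTTATA. Both strands were searched, and the forkhead core and the box can share letters.

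Col8a1, chr16:57754738-57754987, minus strand: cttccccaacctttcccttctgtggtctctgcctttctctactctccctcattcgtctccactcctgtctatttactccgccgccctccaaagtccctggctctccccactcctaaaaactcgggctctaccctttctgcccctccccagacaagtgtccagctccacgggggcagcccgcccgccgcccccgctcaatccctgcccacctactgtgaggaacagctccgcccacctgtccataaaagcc

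Fbln2, chr6:91212514-91212763, plus strand: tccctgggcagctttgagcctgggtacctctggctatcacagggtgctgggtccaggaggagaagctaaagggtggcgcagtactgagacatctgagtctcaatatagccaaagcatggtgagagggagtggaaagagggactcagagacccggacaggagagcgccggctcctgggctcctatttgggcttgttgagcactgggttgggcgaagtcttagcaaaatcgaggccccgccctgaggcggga

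Col17a1, chr19:47692043-47692292, minus strand: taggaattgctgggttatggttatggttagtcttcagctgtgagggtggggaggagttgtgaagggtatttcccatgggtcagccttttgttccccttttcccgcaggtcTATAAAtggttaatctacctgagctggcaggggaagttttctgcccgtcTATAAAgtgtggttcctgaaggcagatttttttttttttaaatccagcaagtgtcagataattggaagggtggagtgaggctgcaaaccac

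Thbs4, chr13:92794819-92795068, minus strand: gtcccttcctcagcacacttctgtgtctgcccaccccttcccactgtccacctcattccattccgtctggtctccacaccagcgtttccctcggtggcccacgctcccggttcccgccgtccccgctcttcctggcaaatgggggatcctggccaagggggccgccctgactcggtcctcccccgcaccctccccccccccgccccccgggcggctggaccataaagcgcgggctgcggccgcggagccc

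Timp3, chr10:86300162-86300411, plus strand: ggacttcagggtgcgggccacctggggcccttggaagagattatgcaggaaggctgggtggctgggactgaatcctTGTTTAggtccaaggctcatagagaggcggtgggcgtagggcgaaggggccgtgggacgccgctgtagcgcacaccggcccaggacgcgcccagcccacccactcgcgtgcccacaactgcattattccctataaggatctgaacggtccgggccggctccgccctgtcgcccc

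*Timp3* held the forkhead core 174 bases before its start, and *Col17a1* held TATAAA 140 and 91 bases before it, while *Col8a1*, *Fbln2* and *Thbs4* held none of the 3 motifs. Of the 79 members, 57 matched the promoter table, with 65 start sites. The forkhead core was present at 8 of these 65 sites (12.3%) and at 3952 of all 32851 sites in the table. TGANTCA was present at 9 (13.8%, against 6.75% of all sites), most of them Mmp genes, and TATAAA at 13 (20.0%, against 12.4%). These matches describe letters in a window and show no binding. *Adamts8* was not in the promoter table.

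In newborn ovaries, the comparison of null with wild-type asked which matrix genes differed without *Foxl2* when follicles first form. *Fbln2*, *Col17a1*, *Adamts8*, *Mmp23*, *Timp1* and *Col6a2* were higher in null ovaries, and *Col8a1* was lower. With an adjusted p under 0.05 as the call, that is 7 of 79 members (8.86%), against 2.54% of all 12244 genes tested (1.69% higher and 0.849% lower). In whole ovaries, fewer cells of a type and less RNA per cell cannot be told apart. The median difference over members was 0.04, beside 0.02 over all genes.

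*Col8a1*, a chain of the short network-forming type VIII collagen found around vessels, read -1.34, -2.14 and -1.46 in the newborn wild-type samples and -2.70, -2.85 and -2.76 in the null samples. All null samples lay below every wild-type sample. The difference was -1.12 ± 0.17 (SE), or 2.18-fold lower, with an adjusted p of 0.00761. *Fbln2* encodes a fibulin, a glycoprotein that bridges elastic fibres and basement membranes. Its values of -2.61, -1.88 and -1.70 in wild-type rose to -1.13, -0.69 and -0.88 in null samples, 2.25-fold higher (1.17 ± 0.22, adjusted p = 0.0253). The wild-type samples of *Fbln2* were spread more widely than the null ones, and the call held in 9 of 16 alternatives (adjusted p up to 0.203). Among fits that left out 1 array, it was lost without null replicate 2 (adjusted p = 0.116), null replicate 3 (0.0891) or wild-type replicate 2 (0.0567). Such fits at 7 dpn leave a group with 1 array, which is then assumed to vary like the other groups.

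*Col17a1*, the transmembrane collagen that anchors epithelial cells at hemidesmosomes, read 0.14, 0.50 and 0.21 in newborn wild-type samples and 1.15, 1.29 and 1.08 in null samples. It was 1.85-fold higher in null (0.89 ± 0.14, adjusted p = 0.00804), with a wide gap between the groups. With normexp background correction the difference was 0.37 (adjusted p = 0.00392), and with the series values it was 0.47. *Adamts8*, a secreted metalloproteinase with thrombospondin repeats, gave 0.57, 0.77 and 0.56 against 1.58, 1.19 and 1.41, or 1.69-fold higher in null (adjusted p = 0.00761). *Mmp23*, a membrane-anchored metalloproteinase known from reproductive tissues, gave 2.21, 2.30 and 2.30 against 3.06, 2.77 and 3.18, 1.66-fold higher (adjusted p = 0.0219). Leaving out 1 of 4 newborn samples took *Mmp23* to an adjusted p of 0.06 to 0.0877. *Adamts8* and *Col17a1* did not pass in the ovary channel alone (adjusted p = 0.0981 and 0.057). The groups did not overlap for any of these genes, nor for 23 of all 79 members, and the share over all genes was not computed.

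The other newborn calls were small. *Timp1*, a soluble inhibitor of metalloproteinases, read -1.07, -1.40 and -1.30 in wild-type and -0.75, -0.64 and -0.51 in null samples, 1.54-fold higher (adjusted p = 0.0102). The call ended in the ovary channel alone (adjusted p = 0.257) and with only the newborn arrays (0.0584), and the difference was 0.41 with the series values. *Col6a2*, a chain of the beaded-filament type VI collagen, read 0.16, 0.33 and 0.27 against 0.59, 0.65 and 0.67, 1.30-fold higher (adjusted p = 0.033). Of the 6 newborn samples compared, 5 were each needed for that call, newborn wild-type replicate 1 being the exception (adjusted p from 0.0616 to 0.128 without the others). In all, *Col6a2* passed in 9 of 16 alternatives (adjusted p up to 0.399). Its partner chain *Col6a1* was 0.33 higher without passing the test (adjusted p = 0.0888). None of the 6 fibrillar collagens, 14 basement membrane genes or 5 matricellular genes passed the test in newborns, although 5 of the 6 fibrillar collagens had differences above 0. *Thbs2* differed by -0.06 and *Adamts16* by -0.12 (adjusted p = 0.735 and 0.694).

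**Figure D1:**
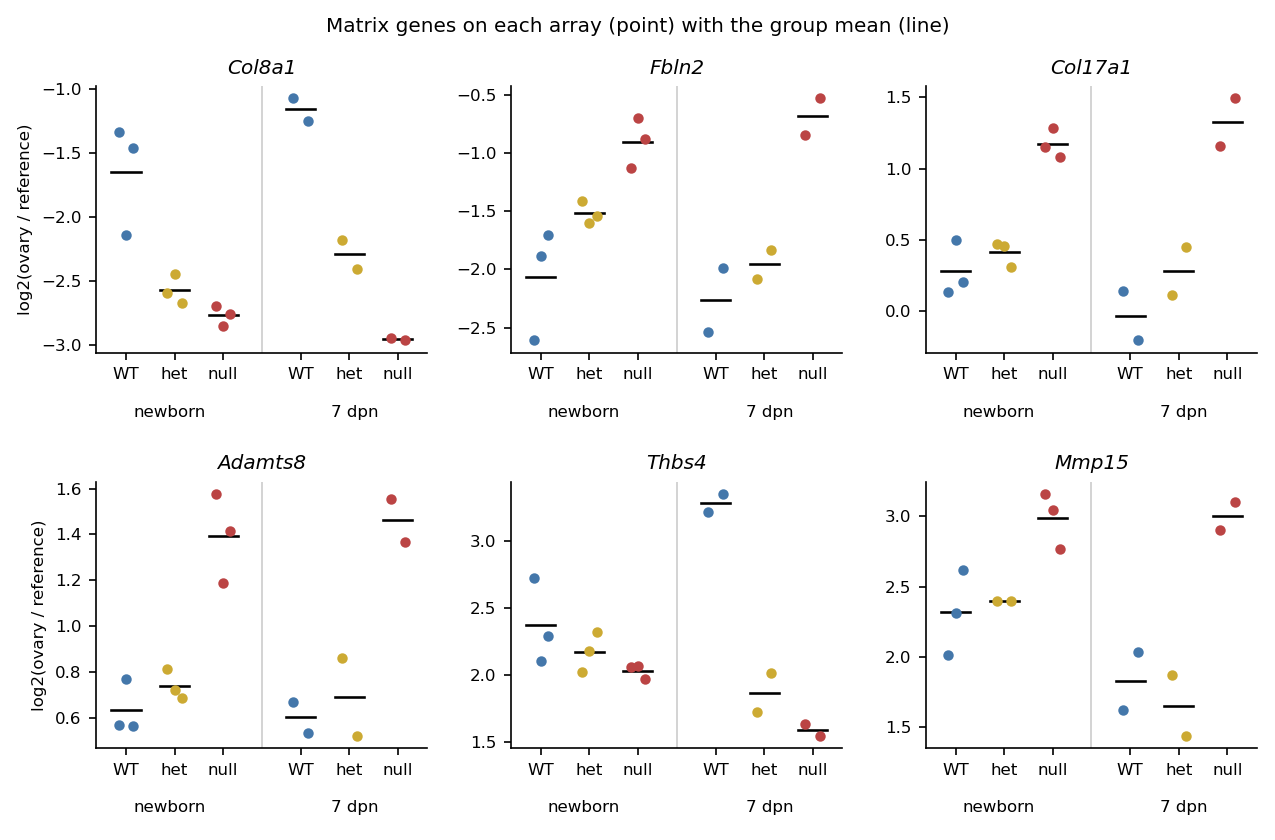
Log2 ratio of ovary over reference on each array (points) and group means (lines) for 6 matrix genes in newborn and 7 dpn ovaries that were wild-type (WT), heterozygous (het) or null; each panel has its own vertical scale. Null samples lie apart from wild-type samples at both ages for *Col8a1*, *Fbln2*, *Col17a1* and *Adamts8*, and *Thbs4* separates wild-type from both other genotypes at 7 dpn.

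At 7 dpn, when follicles grow in wild-type ovaries, 10 of 79 members (12.7%) differed between null and wild-type, against 8.63% of all genes (4.48% higher and 4.15% lower). *Fbln2*, *Col17a1*, *Mmp15*, *Adamts8* and *Timp3* were higher in null, and *Col8a1*, *Thbs4*, *Lama2*, *Mmp11* and *Lamb1* were lower. The members' median difference was 0.01, and 0.02 over all genes. Centring each array on its median gave 8 higher and 4 lower members, and the authors' series values gave 8 and 5. Normexp background correction gave 8 higher and 10 lower, and the ovary channel alone 4 and 5.

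*Col8a1* had the largest fall, from -1.07 and -1.24 in wild-type to -2.95 and -2.97 in null samples. That is 3.49-fold lower (-1.80 ± 0.21, adjusted p = 0.000689), and its adjusted p stayed at or below 0.0106 in every alternative fit. *Thbs4*, a pentameric thrombospondin of connective tissue, read 3.21 and 3.35 in wild-type and 1.63 and 1.54 in null samples. It was 3.24-fold lower in null (-1.69 ± 0.17, adjusted p = 0.000306; at most 0.00816 in the alternatives). For both genes the null samples lay far below the wild-type ones, with less than 0.2 between arrays of a group.

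*Fbln2* gave the largest rise, from -2.54 and -1.99 in wild-type to -0.84 and -0.52 in null samples. It was 3.00-fold higher (1.58 ± 0.27, adjusted p = 0.00681), a call that ended without null replicate 2 (0.0751) or wild-type replicate 1 (0.0509). *Col17a1* read 0.15 and -0.20 in wild-type and 1.16 and 1.49 in null samples, 2.56-fold higher (1.35 ± 0.17, adjusted p = 0.000986), and 0.65 higher on the log2 scale with normexp. *Adamts8* read 0.67 and 0.54 against 1.56 and 1.37, 1.81-fold higher (0.86 ± 0.14, adjusted p = 0.00497, and 0.0525 without null replicate 1). Null and wild-type samples stood apart in each of these genes. At 7 dpn that held for 46 of the 79 members, so it adds no support to the calls. The share over all genes was not computed.

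Among proteases and inhibitors, *Mmp15*, a membrane-type metalloproteinase, read 1.62 and 2.03 in wild-type and 2.90 and 3.10 in null samples, 2.26-fold higher (1.17 ± 0.22, adjusted p = 0.013). A second probe of *Mmp15* differed by 0.38 (adjusted p = 0.0778), and the mean of both probes did not pass the test (adjusted p = 0.17). Leaving out either null replicate (adjusted p = 0.0546 and 0.111) or wild-type replicate 1 (0.0818) also ended that call. *Mmp11*, a stromal stromelysin, read 0.45 and 0.82 in wild-type and -0.02 and -0.09 in null samples, 1.61-fold lower (adjusted p = 0.0158), but its other probe differed by 0.05. *Timp3*, the inhibitor that binds to the matrix, read 0.19 and -0.41 in wild-type and 0.59 in both null samples, 1.62-fold higher (adjusted p = 0.0196), while its other probe differed by 0.12. The wild-type samples of *Timp3* lay far apart, and without wild-type replicate 2 its difference was 0.39 (adjusted p = 0.0471). Neither *Mmp11* nor *Timp3* passed when a null replicate was left out, and *Mmp11* did not without wild-type replicate 2. Each passed in 10 of 14 alternatives, and the adjusted p of *Timp3* reached 0.168. *Mmp23*, called in newborns, was 0.48 higher in null at 7 dpn and did not pass (adjusted p = 0.138).

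The laminins that fell were *Lama2* and *Lamb1*. *Lama2*, the alpha chain of muscle and nerve basement membranes, read 2.92 and 3.38 in wild-type and 2.44 and 2.31 in null samples, 1.71-fold lower (adjusted p = 0.04). *Lamb1*, a beta chain shared by many laminins, read 0.96 and 1.20 against 0.60 and 0.31, 1.54-fold lower (adjusted p = 0.0158), and its second probe differed by -0.46 (adjusted p = 0.134). Without null replicate 2 or wild-type replicate 2, neither laminin passed (adjusted p from 0.113 to 0.241), and *Lama2* was also lost without null replicate 1 (0.125). *Lama2* passed in 6 of 14 alternatives (adjusted p up to 0.29), with a difference of -0.47 with the series values, and *Lamb1* in 9 (up to 0.154). *Lama1*, the alpha chain of early basement membranes, was not called at its brightest probe (-0.41, adjusted p = 0.123) but fell at its dimmer one (-1.19, adjusted p = 0.00871).

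Over the 14 basement membrane genes, 2 fell, none rose and the median difference was -0.14. No fibrillar collagen passed the test. *Col1a2*, a chain of type I collagen, was nearest, with 0.01 and 0.44 in wild-type and -0.36 and -0.35 in null samples (-0.58, adjusted p = 0.0813), and the median of the 6 fibrillar collagens was -0.36. Of 17 other collagens 1 rose and 1 fell, and of 19 Mmp genes 1 rose and 1 fell. *Thbs2* and *Adamts16* differed by 0.07 and by less than 0.01.

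**Figure D2:**
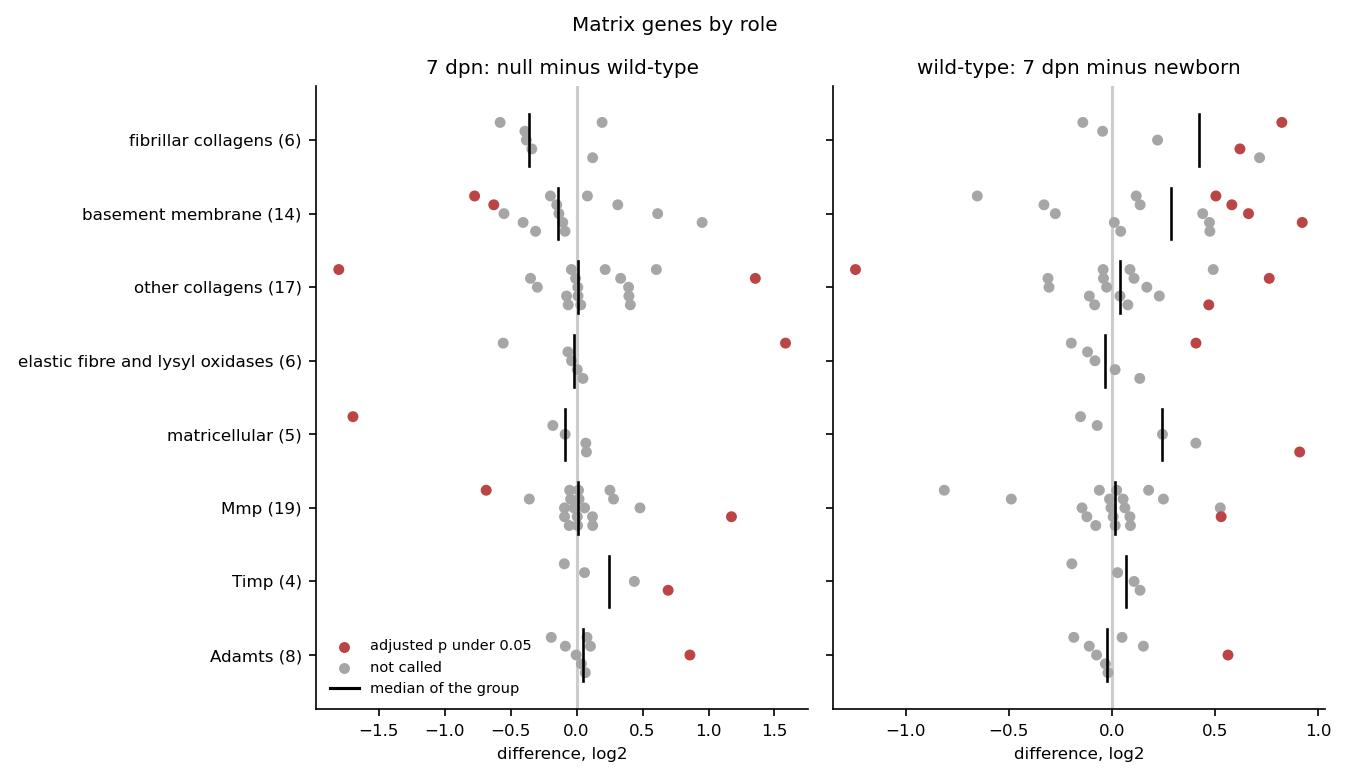
Log2 difference of each of the 79 members (points) by role, between null and wild-type at 7 dpn (left) and between 7 dpn and newborn in wild-type (right); red points have an adjusted p under 0.05, black lines are group medians and counts of members stand in parentheses. The medians of fibrillar collagens lie at -0.36 on the left and 0.42 on the right, those of basement membrane genes at -0.14 and 0.29.

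Null and wild-type were compared at both ages on separate arrays, so the 2 sets of differences share no sample. Of 79 members, 56 differed in the same direction at both ages (70.9%, against 61.5% of 12244 genes). All 7 newborn calls and all 10 calls at 7 dpn had the same sign at the other age. The matching share over all called genes was not computed, so this count does not set the members apart. *Col8a1*, *Fbln2*, *Col17a1* and *Adamts8* were called at both, which is 57.1% of the newborn calls (65% over all genes) and 40% of those at 7 dpn (19.1% over all genes).

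The size of the null effect was tested between the ages for each gene. *Thbs4* was the only member to pass (1 of 79, against 0.278% of all genes), with a difference of -0.34 in newborns and -1.69 at 7 dpn, a change of -1.35 ± 0.22 (adjusted p = 0.0469). It passed in 5 of 19 alternative fits, and not when any null sample, newborn wild-type replicate 2 or 3, or either 7 dpn wild-type sample was left out (adjusted p from 0.0587 to 0.206). For *Lama2* and *Lamb1*, called only at 7 dpn, the change was -0.76 and -0.60 (adjusted p = 0.267 and 0.199), so a difference between ages was not shown.

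**Figure D3:**
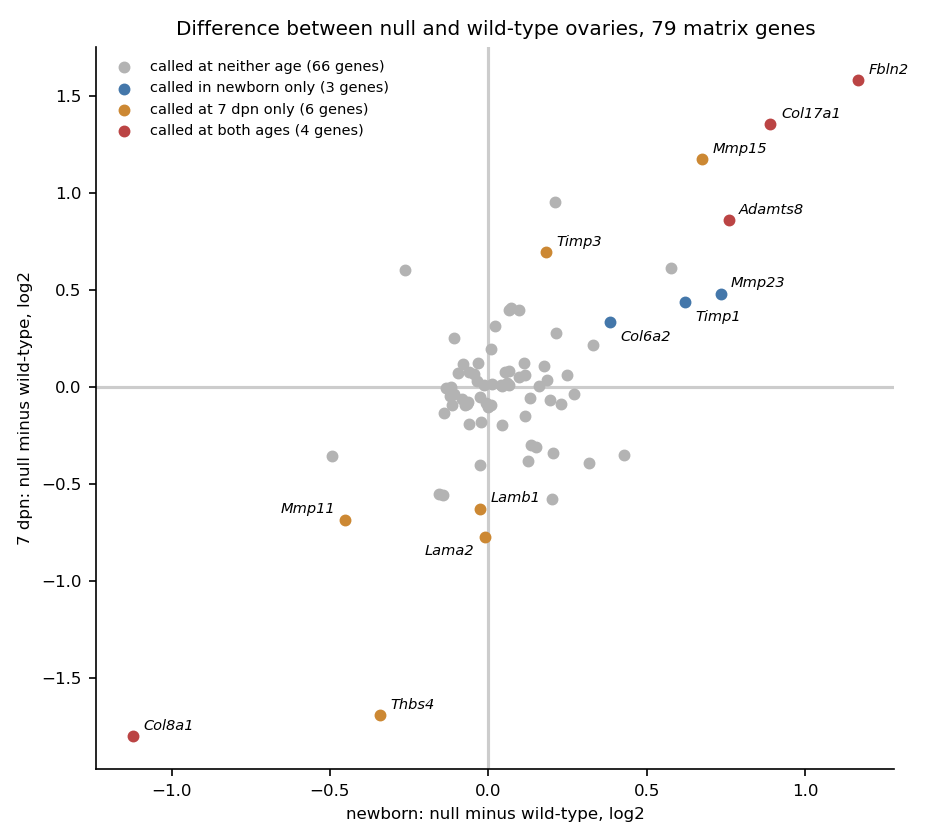
Log2 difference between null and wild-type ovaries in newborns (horizontal axis) and at 7 dpn (vertical axis) for 79 matrix genes, coloured by the age at which the adjusted p was under 0.05. The 4 genes called at both ages have differences of the same sign at both, and *Thbs4*, at -0.34 and -1.69, lies near the vertical zero line and far below the horizontal one.

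Heterozygous ovaries were compared with wild-type to see what the loss of 1 allele does. In newborns no member was called by limma (0 of 79, with 14, or 17.7%, at an unadjusted p under 0.05, against 13.7% of all genes; 0.0408% of all genes were called). Without wild-type replicate 1 the count was 6, and without wild-type replicate 2 it was 1. At 7 dpn 2 members were called, against 0.0572% of all genes: *Thbs4* was lower and *Lamb3* was higher.

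*Thbs4* read 1.72 and 2.02 in heterozygous ovaries at 7 dpn, against 3.21 and 3.35 in wild-type, 2.66-fold lower (-1.41 ± 0.17, adjusted p = 0.0259). These values were close to those of the null samples (1.63 and 1.54), and heterozygous and null differed by -0.28 (adjusted p = 0.633). *Lamb3*, the beta chain of the laminin found beneath epithelia, read -2.02 and -2.06 in heterozygous and -2.64 and -2.72 in wild-type samples, 1.56-fold higher (adjusted p = 0.0337). Its null samples, -2.51 and -2.22, lay between, its second probe, above background on 12 arrays, differed by 0.01, and the mean of both probes did not pass (0.33, adjusted p = 0.327). Neither call held without a heterozygous sample or wild-type replicate 2 (adjusted p from 0.115 to 0.19), and each passed in 6 of 14 alternatives.

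*Col8a1* in heterozygous ovaries lay nearer to null than to wild-type in newborns, and between them at 7 dpn. The newborn heterozygous samples read -2.59, -2.45 and -2.67, all below wild-type and above null. Heterozygous minus wild-type was -0.92 in newborns (adjusted p = 0.0767) and, with 7 dpn samples at -2.18 and -2.41, -1.14 at 7 dpn (adjusted p = 0.103), so neither passed. The null difference from the same wild-type samples was -1.12 and -1.80.

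*Adamts8* and *Col17a1*, higher in null ovaries, were near wild-type in heterozygous ones. *Adamts8* in newborn heterozygotes read 0.81, 0.72 and 0.69, and *Col17a1* read 0.47, 0.46 and 0.31. Both were higher in null than in heterozygous newborns (0.65 and 0.76, adjusted p = 0.0412 and 0.0448), the only 2 members called there, against 0.645% of all genes. These 2 calls did not hold without any 1 heterozygous sample, and at most 1 held without a null sample. The block on replicate number also removed both.

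At 7 dpn, 8 members differed between null and heterozygous ovaries (3.24% of all genes did, 1.68% higher and 1.56% lower). *Mmp15* (2.55-fold), *Fbln2* (2.42-fold), *Col17a1* (2.06-fold), *Adamts8* (1.71-fold), *Col6a2* (1.42-fold) and *Col6a1* (1.37-fold) were higher in null, with adjusted p from 0.00822 to 0.0458. *Col6a1* and *Col6a2*, neighbouring genes for chains of the same collagen, read -0.05 on both heterozygous arrays against 0.40 and 0.41, and 0.40 and 0.23 against 0.78 and 0.86. *Mmp11* was 2.04-fold lower (0.96 and 1.00 against -0.02 and -0.09, adjusted p = 0.00339), and *Lamb1* was 1.58-fold lower (adjusted p = 0.0212, and 0.0468 at its second probe). The other probes of *Mmp11* and *Mmp15* differed by 0.09 and 0.28 (adjusted p = 0.794 and 0.322). The count was 2 to 4 when 1 of the 4 samples was left out. *Mmp11* passed in 13 of 14 alternatives, *Col17a1* in 10, and *Adamts8*, *Mmp15*, *Col6a2* and *Lamb1* in 9 each. *Col6a1* passed in 5 and *Fbln2* in 6, and neither did so without any 1 of the 4 samples (adjusted p from 0.107 to 0.287). Median centring and the series values each gave 5 higher and 3 lower, and the ovary channel alone gave 1 and 2.

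**Figure D4:**
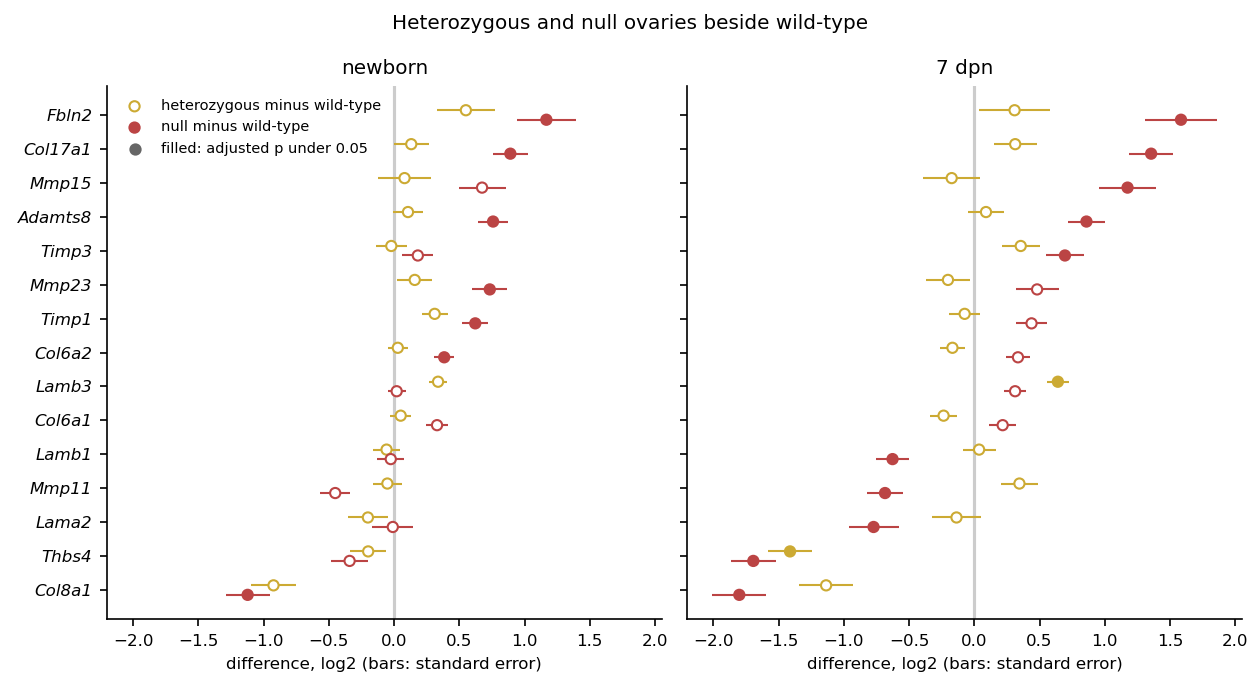
Log2 difference from wild-type (points) with its standard error (bars) for heterozygous (yellow) and null (red) ovaries, in newborns (left) and at 7 dpn (right), for the 15 members called in any comparison of genotypes; both differences use the same wild-type samples, and filled points have an adjusted p under 0.05. The heterozygous points of *Col8a1* and *Thbs4* lie on the side of the null points, at -1.14 and -1.41 at 7 dpn, while those of *Col17a1*, *Adamts8* and *Mmp15* stay within 0.31 of 0 there.

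Between birth and 7 dpn, more members rose than fell in wild-type ovaries. Of 79 members, 12 rose and *Col9a3*, near background, was called as lower (16.5% called, against 12.6% of all genes, 7.53% higher and 5.1% lower). The median difference was 0.04, beside 0.00 over all genes. The array images of the 2 ages were processed on different days, and only the 7 dpn samples are described as pools of mice. Age, pooling and processing day therefore cannot be told apart here. The series values gave 11 higher and 6 lower, the ovary channel alone 4 and 1.

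Chains of laminin and of type I collagen were among the genes that rose most. *Lama2* rose from 2.56, 2.21 and 1.92 to 2.92 and 3.38, 1.89-fold (adjusted p = 0.0107). *Thbs4* rose from 2.72, 2.10 and 2.29 to 3.21 and 3.35, 1.88-fold (adjusted p = 0.00752). *Col1a2* rose from -0.45, -0.56 and -0.78 to 0.01 and 0.44, 1.77-fold (adjusted p = 0.0107). In each, both older samples lay above all newborn ones, and the 2 ages did not overlap in 34 of the 79 members. Each of the 3 calls ended without 7 dpn wild-type replicate 2 (adjusted p from 0.0537 to 0.0877).

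*Col16a1*, a collagen that associates with fibrils, rose 1.70-fold from -1.01, -1.30 and -1.34 to -0.68 and -0.23. *Col15a1*, a proteoglycan collagen at the outer face of basement membranes, rose 1.58-fold from 0.48, 0.47 and 0.52 to 1.15 on both arrays, with an adjusted p of 0.00164, but 0.594 in the ovary channel alone (0.44). *Col5a3* rose 1.54-fold from -0.98, -1.14 and -1.32 to -0.58 and -0.48, although its other probe changed by -0.01 (adjusted p = 0.96). *Lamb1* rose 1.49-fold (0.69, 0.40 and 0.42 to 0.96 and 1.20), and its second probe changed by 0.58 as well (adjusted p = 0.0302). *Col5a3* passed in 9 of 14 alternatives (adjusted p up to 0.109), *Col16a1* in 10 (up to 0.114), *Lamb1* in 12 (up to 0.104) and *Col15a1* in 13.

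Smaller rises were seen for *Adamts4* (1.48-fold), an aggrecan-cutting protease, for *Mmp14* (1.44-fold), the membrane-type metalloproteinase that activates progelatinase, and for *Lamb2* (1.42-fold), *Col6a1* (1.38-fold) and *Loxl3* (1.33-fold), a lysyl oxidase-like enzyme of collagen cross-linking. Their adjusted p ran from 0.0095 to 0.0435. *Loxl3* passed in 6 of 14 alternatives (adjusted p up to 0.223), *Lamb2* and *Mmp14* in 10, *Col6a1* in 11 (up to 0.242) and *Adamts4* in 12. *Col9a3*, a cartilage collagen, was called as lower at 7 dpn (adjusted p = 0.011). Its ovary signal was well above background in all 3 newborn wild-type samples and in none at 7 dpn, and its reference signal on no array. Its fitted p therefore rests on signals near background, with normexp its fitted change was -0.27, and a fall was not shown. Without 7 dpn wild-type replicate 2, 3 members were called, and without newborn wild-type replicate 2 or 3 there were 7 or 8.

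In null ovaries 4 members changed with age, against 5.15% of all genes. *Col5a3* rose from -1.42, -0.88 and -1.24 to -0.44 and -0.38 (1.71-fold), *Adamts4* from -0.80, -0.72 and -0.63 to -0.19 and -0.26 (1.41-fold), and *Col15a1* from 0.57, 0.53 and 0.50 to 0.88 and 1.03 (1.34-fold). *Col27a1*, a fibrillar collagen of cartilage, fell from 2.90, 2.86 and 3.03 to 2.49 and 2.27 (1.47-fold lower, adjusted p = 0.0216). The 3 that rose were also called in wild-type. The other probe of *Col5a3* changed by -0.11 in null (adjusted p = 0.51). *Adamts4* passed in 6 of 14 alternatives (adjusted p up to 0.395), *Col27a1* in 8 (up to 0.537), *Col15a1* in 9 (up to 0.903) and *Col5a3* in 11 (up to 0.146). Changes of *Lama2*, *Col1a2*, *Col16a1* and *Lamb1* with age, called in wild-type, were between -0.02 and 0.16 in null ovaries, and the difference between genotypes did not pass for any of the 4 (adjusted p from 0.199 to 0.267). Median centring gave 2 calls, both higher, and the count without single null samples ran from 0 to 6: 2 without newborn replicate 2, 1 without newborn replicate 3 or 7 dpn replicate 1, and 0 without 7 dpn replicate 2.

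**Figure D5:**
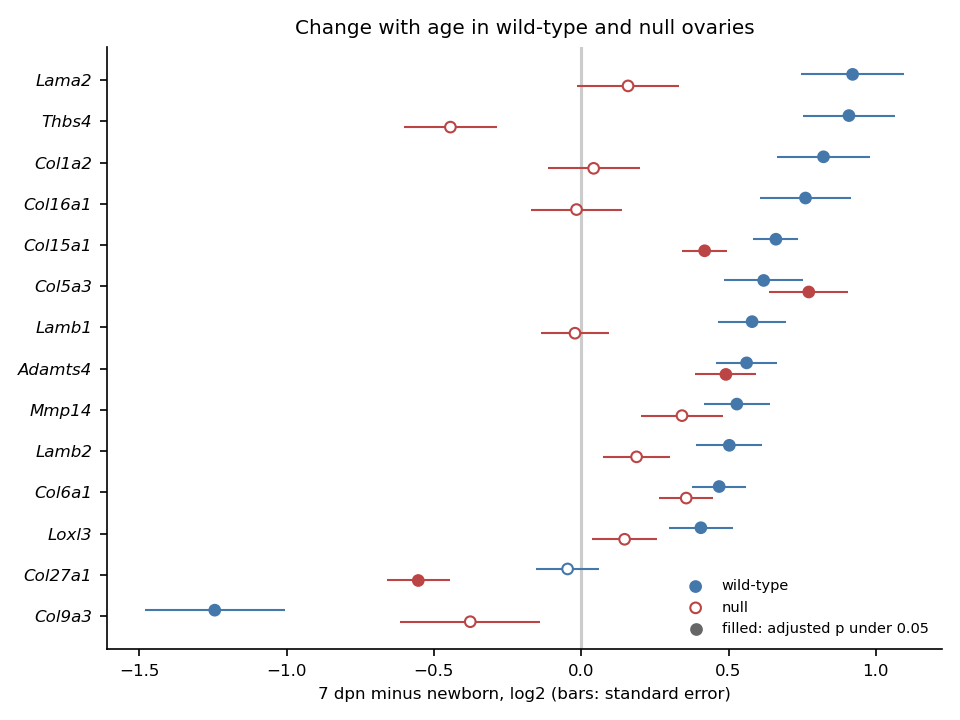
Log2 change from newborn to 7 dpn (points) with its standard error (bars) in wild-type (blue) and null (red) ovaries for the 14 members called in either; filled points have an adjusted p under 0.05. *Lama2*, *Thbs4*, *Col1a2*, *Col16a1* and *Lamb1* lie above 0.5 in wild-type and below 0.2 in null, *Col5a3* and *Adamts4* lie close together, and the value of *Col9a3* rests on signals near background.

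At their brightest probe, the remaining members did not pass the test in any of the 9 comparisons: 25 of the 79 were called in at least 1 comparison (31.6%, against 19.9% of all genes), and 15 in a comparison of genotypes (19%, against 9.92%). Besides *Lama1*, a dimmer probe of *Mmp12*, the macrophage elastase, passed where the brightest did not, in newborn null against wild-type (0.28, adjusted p = 0.0482, against -0.03 at the brightest). *Sparc*, a collagen-binding matricellular protein, *Nid1*, *Nid2*, *Col1a1*, *Col4a1*, *Timp2*, *Mmp2* and *Mmp9* are among those not called. *Nid2* and *Nid1*, which link laminin to type IV collagen, both changed by 0.47 with age in wild-type (adjusted p = 0.0784 and 0.081). *Col1a1*, the partner chain of *Col1a2*, read -1.02, -0.65 and -0.80 in newborn and -0.23 and 0.01 in 7 dpn wild-type samples, a change of 0.71 that did not pass (adjusted p = 0.0537). *Lox*, the enzyme that cross-links collagen and elastin, lay between -3.18 and -2.43 on the 15 arrays, with no comparison called. *Mmp14* was missing on 3 arrays and *Mmp15* on 1, where their spots had been marked as outliers, and they were fitted on the rest.

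Other genes of the matrix, outside the member families, were taken from a fixed list. Of 87 listed genes 70 were measured. With age in wild-type 20 were called (28.6%, against 12.6% of all genes) and all 20 rose. Among them were the proteoglycans *Ogn* (1.71), *Aspn* (1.18) and *Dcn* (0.77), and the collagen assembly genes *Plod2* (1.65), *Plod1* (0.64), *P4hb* (0.52) and *Serpinh1* (0.59). In null ovaries 6 rose with age and none fell (8.57%, against 5.15% of all genes).

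Between null and wild-type at 7 dpn, 9 of the 70 were called (12.9%, against 8.63% of all genes). *Eln*, the core of the elastic fibre, was higher in null in newborns (0.82, adjusted p = 0.0264) and at 7 dpn (1.05, adjusted p = 0.00957), as was the laminin-binding *Ntn4* at 7 dpn (0.68). In newborns *Ntn4* was lower in null than in heterozygous ovaries (-0.83, adjusted p = 0.0375). *Plod2* (-1.48), *Plau* (-0.86), *Htra1* (-0.74), *Emilin2* (-0.71), *Matn2* (-0.71), *Itga9* (-0.60) and *Ltbp4* (-0.55) were lower at 7 dpn. *Sdc2*, a cell-surface proteoglycan, was lower in null newborns (-0.82, adjusted p = 0.000839). In heterozygous ovaries none of the 70 was called at either age (0 by limma).

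Markers of the ovary's cell types moved in the same samples. At 7 dpn, 7 of 11 granulosa markers were lower in null than in wild-type and 1 was higher (*Nr0b1*), and their mean log2 ratio was 1.18 to 1.23 in null, 1.70 to 1.79 in heterozygous and 2.28 to 2.57 in wild-type samples. Of 7 interstitial fibroblast markers 5 were lower in null (mean 2.00 to 2.04, against 2.77 to 2.81 in wild-type), and 6 rose with age in wild-type and none in null. Of 5 steroidogenic and theca markers 3 were lower, of 11 germ cell markers 2 (*Bmp15* and *Oosp1*), and of 6 endothelial markers 1 (*Emcn*). *Sox9* was the only 1 of 6 Sertoli markers to rise, *Krt18* rose among surface epithelium markers (mean -0.60 to -0.39 in null, -1.15 to -0.93 in wild-type), and *Pax8* among 3 tubule markers. None of 5 smooth muscle or 4 macrophage and blood markers differed. In newborns, *Fst* and *Hsd3b1* were lower and *Nr0b1* and *Sox9* higher in null. The part of these cell types in the matrix differences was not tested.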

How the data were processed

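Ovary RNA (Cy3) was hybridised with a universal mouse reference RNA (Cy5) on 15 Agilent 2-colour arrays, with no dye swap. The deposited scanner files hold background-subtracted, dye-normalized intensities made by the authors with Agilent Feature Extraction A.7.5.1. A series table of processed intensities, deposited by the authors, follows the ovary channel (r from 0.959 to 0.980 by array) and was used as an alternative on the log2 scale. The genome build behind the array's probes is not given in the sources used here, and coordinates of promoters are those of the RefSeq table.

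Control and outlier spots were removed, spots of a probe averaged, and log2(ovary/reference) normalized by local linear loess (span 0.01) against the mean array. The methods name local mean regression of that span, which was run as an alternative. limma 3.58.1 (R 4.3.3) fitted the 6 group means, with Benjamini-Hochberg adjustment over 40990 probes. A call is an adjusted p under 0.05, and all adjusted p values in the text come from limma. The pipeline was tested on simulated data. Accessions were matched to symbols through RefSeq, which named 15294 of 41006 probes. Each gene was read at its brightest probe, and genes were named where they passed the test in any comparison. One gene of these families is not reported here. The number of arrays limits the precision, and where arrays are not separate animals p values measure only the spread between arrays.

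Members and lists were chosen with earlier results of these data known. Alternatives were background correction, centring, loess span and form, the ovary channel alone, the series values, a filter on dim probes, the mean over probes, a replicate block, only the arrays compared, a stricter threshold and leaving out each array.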

Additional observations from a re-analysis of the deposited data

Results flagged for a closer look

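*Thbs4* stood out because the difference between null and wild-type ovaries itself differed between newborns and 7 dpn, by -1.35 on the log2 scale (tested as an interaction in limma, adjusted p = 0.0469). Wild-type samples read 2.72, 2.10 and 2.29 in newborns and 3.21 and 3.35 at 7 dpn, while null samples read 2.06, 2.07 and 1.97 in newborns and 1.63 and 1.54 at 7 dpn. The value ranged from -2.02 to -1.07 over 19 alternatives, with the highest adjusted p at 0.323. Interstitial fibroblast markers averaged 1.87 to 2.10 in newborn wild-type and 1.84 to 2.09 in newborn null samples. At 7 dpn they averaged 2.77 to 2.81 in wild-type, 2.41 to 2.44 in heterozygous and 2.00 to 2.04 in null samples. Their part in the *Thbs4* difference was not tested.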

How the results depend on the processing

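In 681 refits of 47 gene and comparison pairs, 473 kept their call, 208 kept the direction only and 0 reversed. The pairs were chosen by their calls on the same arrays, so a reversal was unlikely from the start. Other probes read alone were not among the refits, and those of *Mmp11* and *Col5a3* did not follow the brightest. *Col8a1* at both ages and *Thbs4* and *Col17a1* at 7 dpn, null against wild-type, passed in every alternative. Among the 79 members, null against wild-type in newborns gave 7 calls, and 3 with the ovary channel alone (2 higher, 1 lower), 4 with only the arrays of that age and 3 at a threshold of 0.01. Heterozygous against wild-type in newborns gave 0 calls, 2 after normexp and 1 with median centring. Null against heterozygous newborns gave 2 calls, 4 after normexp (3 higher, 1 lower), 1 with a loess span of 0.3, and 0 with median centring, the ovary channel alone, the series values, the replicate block, only the arrays of that age, or the threshold of 0.01. At 7 dpn, null against wild-type gave 10 calls, 18 after normexp, 5 with only the arrays of that age and 5 at the threshold of 0.01. Heterozygous against wild-type at 7 dpn gave 2 calls, 1 with the series values, 1 with the mean over probes, and 0 with the ovary channel alone, the replicate block, only the arrays of that age or the threshold of 0.01. Null against heterozygous at 7 dpn gave 8 calls, 3 with the ovary channel alone, 1 with only the arrays of that age and 2 at the threshold of 0.01. With age, wild-type ovaries gave 13 calls, 5 with the ovary channel alone and 3 at the threshold of 0.01, and null ovaries gave 4 calls, 2 with median centring, 1 with the series values and 0 with the ovary channel alone or the threshold of 0.01. The change of the null effect with age gave 1 call, and 0 with median centring, the span of 0.3, the ovary channel alone, the series values, the replicate block or the threshold of 0.01. The stricter threshold lowers counts by construction. For the other alternatives the cause was not tested.

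When 1 array at a time was left out, the counts ran from 4 to 8 for null against wild-type, 0 to 6 for heterozygous against wild-type and 0 to 1 for null against heterozygous in newborns. At 7 dpn they ran from 4 to 13, 0 to 3 and 2 to 4. With age they ran from 3 to 17 in wild-type and 0 to 6 in null, and for the change of the null effect from 0 to 4. Newborn null against wild-type gave 4 calls without null replicate 3 or without wild-type replicate 2, and 7 dpn null against wild-type gave 6 without null replicate 1 and 4 without null replicate 2. The change of the null effect gave 4 without newborn wild-type replicate 1.

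Same-numbered arrays of different genotypes deviated from their group means with correlations of -0.171 to 0.143, so the numbers do not pair the samples. The replicate block took *Mmp23* in newborns (null against wild-type, adjusted p = 0.0502), *Lama2* (0.0742) at 7 dpn, *Thbs4* (0.0968) and *Lamb3* (0.0996) in 7 dpn heterozygotes, *Loxl3* with age in wild-type (0.103) and the *Thbs4* age difference (0.115) past the threshold, besides both newborn calls of null against heterozygous. The series values moved the median of all probes by 0.11 between null and wild-type at 7 dpn and by -0.16 with age in wild-type. A block on scan date was not run, since no scan date was given.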
